A study of Mus musculus with 12 samples.

Results

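The genes of the extracellular matrix's proteolytic and cross-linking machinery are described here in tumours and non-tumour liver of mice. They were chosen by name from a table of 24421 genes: matrix metalloproteinases (MMP), their tissue inhibitors (TIMP), the ADAM and ADAMTS metalloproteinases, the lysyl oxidases Lox and Loxl1 to Loxl4, and heparanase, Hpse. The rule found 84 genes, of which 22 are MMP, 4 TIMP, 33 ADAM, 19 ADAMTS, 5 lysyl oxidase and 1 heparanase genes. The rule goes by gene name.

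RNA of livers from C57BL/6 mice aged 15 months was sequenced from 4 groups, each with 3 libraries. Tumour tissue and non-tumour liver came from mice lacking both Atg7 and Hmgb1 (Atg7-/-/Hmgb1-/-, called DKO here) and from mice lacking Atg7 alone (Atg7-/-, called Atg7KO). All 4 groups therefore lack Atg7, an enzyme needed to form autophagosomes, and no group has both genes intact. Hmgb1 encodes a chromatin protein that also acts outside the cell as a danger signal. The labels name no promoter or Cre driver for the deletions and leave open whether each library is an animal of its own, so every p-value covers only the spread among these libraries.

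MMPs are secreted or membrane-bound zinc proteases that cut collagens, laminins and proteoglycans, and TIMPs bind and block their active sites. ADAMs are membrane proteases best known for releasing growth factors and receptors from the cell surface, ADAMTS proteases are secreted and process procollagens and proteoglycans, lysyl oxidases cross-link collagen and elastin, and heparanase cuts heparan sulfate chains. In injured liver, stellate cells and macrophages are known sources of many of these proteins, and the balance between proteases, inhibitors and cross-linkers bears on how scar matrix is built and removed.

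Libraries held 18292190 to 32354958 reads on genes, and the members took 0.0517 to 0.123% of them. Hepatocyte markers, 9 of 9, were present in all 4 groups, with summed levels of 29124 to 113861 CPM (counts scaled to library size with TMM factors). Every library held 88 to 401 reads of Atg7, deleted in all groups, in counts that cover the whole gene. Hmgb1, deleted in DKO alone, stood at 60.5 to 91.5 CPM in DKO tumours, against 95.8 to 136 in Atg7KO tumours, and at 83.5 to 118 CPM in DKO non-tumour liver, against 104 to 125 in Atg7KO non-tumour liver. The genotypes overlapped in non-tumour liver, so these reads do not check the labels there, and DKO stands here for the libraries so labelled. Atg7KO tumour replicate 2 stood apart, with the lowest hepatocyte marker sum of all (the others began at 52865 CPM) and the highest cholangiocyte marker sum (6506 CPM, the others at most 1219). Genotype ran together with sex-chromosome transcripts. DKO libraries held 1898 to 4639 reads of Y-linked genes and 0 to 2 of Xist, while Atg7KO libraries held 0 to 2 and 1130 to 12216. Genotype differences therefore cannot be told apart from this difference. In bulk tissue, fewer cells of a type and less RNA per cell cannot be told apart either.

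Of the members, 9 lie in a single stretch of mouse chromosome 9, and their promoters share sequence features. In mm10 these members span chr9:7272514-7699416, or 427 kilobases, called the cluster here. They are Mmp13, Mmp12, Mmp1b, Mmp3, Mmp1a, Mmp10, Mmp8, Mmp20 and Mmp7 in that order. Only members are counted, so these counts do not describe every gene of the stretch. Only Mmp13, Mmp12, Mmp8 and Mmp7 had enough reads to be tested. Promoter windows from 250 bases before to 50 bases after a start site were taken from RefSeq on GRCm38.p6, the build of mm10. Each of the 50 of 84 members that matched was given the window whose start site lay nearest its gene start in the counts. The distance was 42093 bases for Adamts9, 455 for Adam1b, 356 for Timp4 and at most 79 for the others. The AP-1 motif TGANTCA, on either strand, occurred in 8 of the 9 cluster windows (Mmp8 was without it), in 12 of 50 matched members (24%), in 3 of the 31 tested among these (9.68%) and in 7.81% of 32851 windows of all genes. The TATA box motif TATAAA occurred in 9 of 9 cluster windows, 14 of 50 members (28%), 5 of 31 tested (16.1%) and 13.6% of all windows. The GC box motif GGGCGG occurred in 0 of 9 cluster windows, 23 of 50 members (46%), 21 of 31 tested (67.7%) and 35.7% of all windows. The windows of the 3 most abundant cluster genes are shown because these neighbours differed in their pattern across the groups, and those of Hpse and Loxl4 as a gene lower and a gene higher in tumours outside the cluster. Loxl2 and Adam33 are not among the matched members. Capitals mark AP-1, TATA box and GC box matches, each sequence reads 5′ to 3′ along the gene's strand, and a match is only a description of these letters. Mmp13 is on the plus strand at chr9:7272264-7272563, Mmp12 on plus at chr9:7347124-7347423, Mmp7 on plus at chr9:7691840-7692139, Hpse on minus at chr5:100719667-100719966 and Loxl4 on minus at chr19:42612757-42613056.
Mmp13: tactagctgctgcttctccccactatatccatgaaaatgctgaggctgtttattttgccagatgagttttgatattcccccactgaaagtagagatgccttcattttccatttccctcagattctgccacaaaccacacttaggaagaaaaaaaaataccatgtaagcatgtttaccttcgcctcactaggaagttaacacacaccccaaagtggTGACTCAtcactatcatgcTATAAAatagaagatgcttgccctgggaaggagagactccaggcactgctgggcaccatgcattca
Mmp12: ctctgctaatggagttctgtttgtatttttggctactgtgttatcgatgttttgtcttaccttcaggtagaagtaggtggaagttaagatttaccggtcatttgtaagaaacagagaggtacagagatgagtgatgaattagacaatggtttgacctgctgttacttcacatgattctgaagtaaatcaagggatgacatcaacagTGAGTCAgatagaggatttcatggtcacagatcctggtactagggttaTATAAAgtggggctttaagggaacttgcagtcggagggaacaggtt
Mmp7: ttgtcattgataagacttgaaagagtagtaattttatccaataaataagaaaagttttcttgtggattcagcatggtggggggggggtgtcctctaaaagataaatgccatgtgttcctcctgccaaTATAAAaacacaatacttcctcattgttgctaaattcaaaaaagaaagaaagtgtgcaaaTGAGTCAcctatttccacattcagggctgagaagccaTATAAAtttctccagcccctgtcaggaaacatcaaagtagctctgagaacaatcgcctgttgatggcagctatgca
Hpse: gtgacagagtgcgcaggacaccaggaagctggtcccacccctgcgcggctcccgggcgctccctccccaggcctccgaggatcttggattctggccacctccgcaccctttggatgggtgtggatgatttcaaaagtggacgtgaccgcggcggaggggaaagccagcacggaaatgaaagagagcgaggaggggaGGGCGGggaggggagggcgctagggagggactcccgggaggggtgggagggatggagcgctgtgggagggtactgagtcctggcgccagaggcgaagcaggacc
Loxl4: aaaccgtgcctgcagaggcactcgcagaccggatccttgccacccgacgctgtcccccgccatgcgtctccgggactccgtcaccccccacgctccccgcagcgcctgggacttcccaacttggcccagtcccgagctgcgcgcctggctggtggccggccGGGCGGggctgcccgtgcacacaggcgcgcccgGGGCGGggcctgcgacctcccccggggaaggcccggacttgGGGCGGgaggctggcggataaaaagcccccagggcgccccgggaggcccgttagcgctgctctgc
Relative to the start site of the window, the AP-1 match began at position -35 in Mmp13, at -44 in Mmp12 and at -63 in Mmp7. Hpse had a GC box match and neither of the other motifs, and Loxl4 had 3 GC box matches. The antioxidant response element TGACNNNGC, which can overlap an AP-1 match, occurred in 8 of 50 members (16%) and 12.4% of all windows, and the TEAD motif GGAATG in 3 of 50 (6%) and 14.7%. Neither motif occurred in a cluster window.

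Of the 84 members, 50 passed the filter on low counts and were tested among 14443 genes. No read was found for 8 members, including the collagenase gene Mmp1a and 6 ADAM genes outside the sheddase group, and the other 26 had at most 59 reads over all 12 libraries. The untested genes were mostly ADAM genes, 20 of the 24 outside the sheddases, several of which are known from testis. All 4 TIMP, all 5 lysyl oxidase and both gelatinase genes were tested.

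Levels per gene length, as RPKM (CPM divided by gene length), were led by the matrilysin gene Mmp7, whose secreted product lacks the hemopexin domain of most MMPs. It averaged 42.2 RPKM over the 12 libraries, followed by the membrane-type MMP gene Mmp14 at 33.5, the sheddase gene Adam9 at 21.0, Mmp19 at 18.7 and the inhibitor gene Timp3 at 18. The order changed between groups. Mmp7 stood at 33.8 RPKM in DKO tumours, 77.7 in DKO non-tumour liver, 3.36 in Atg7KO tumours and 54.1 in Atg7KO non-tumour liver, whereas Mmp14 stood at 32, 24.9, 41.2 and 35.7 RPKM in the same groups. The libraries of Mmp7 and Mmp14 overlapped in DKO tumours and Atg7KO non-tumour liver, Mmp7 was above Mmp14 in all 3 DKO non-tumour libraries, and it was below in all 3 Atg7KO tumour libraries. Adam9 lay above Mmp19 without overlap in both DKO groups and overlapped it in both Atg7KO groups, and Mmp19 and Timp3 overlapped in every group.

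**Figure D1:**
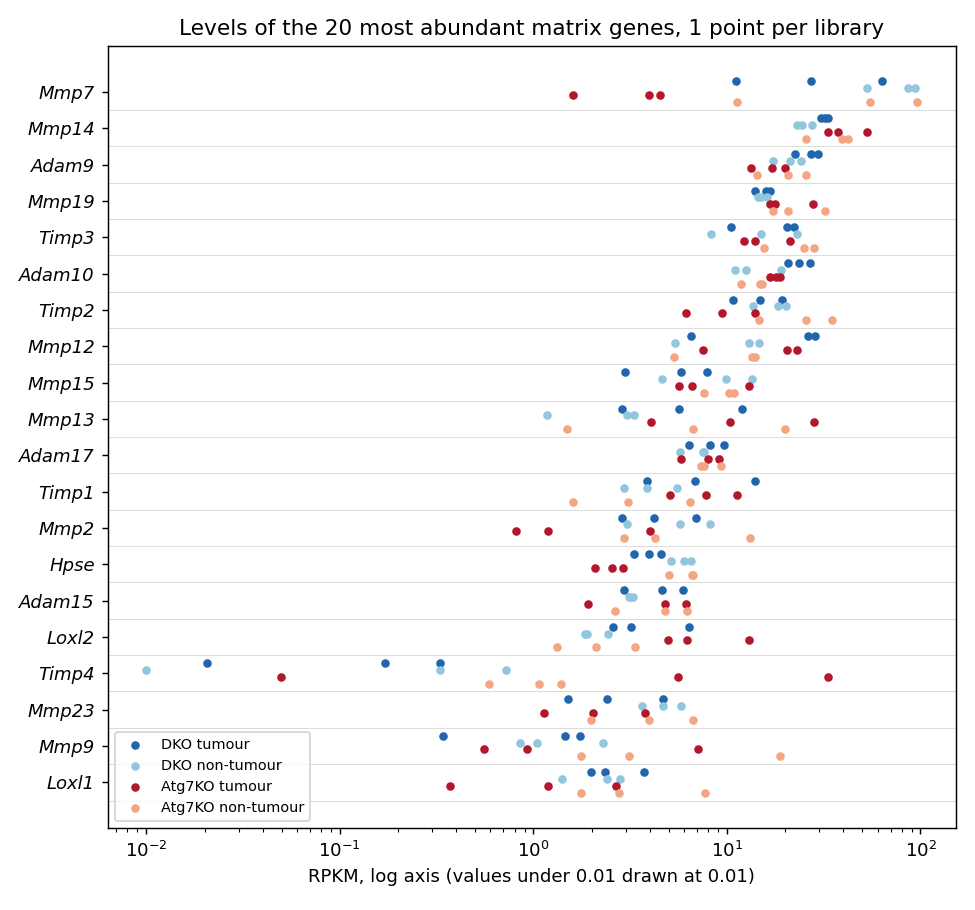
RPKM on a log axis of the 20 members with the highest mean RPKM, ordered from the highest mean at the top, with 1 point per library and a colour per group. Mmp7 spans 1.60 to 95.9 RPKM and has its 3 lowest points in Atg7KO tumours, while Adam10 and Adam17 stay within narrow ranges.

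Summed over the tested and untested genes of a family, MMP levels were 126 ± 34.6 RPKM in DKO tumours against 156 ± 16.1 in DKO non-tumour liver, and 114 ± 8.31 in Atg7KO tumours against 166 ± 65.3 in Atg7KO non-tumour liver (SD, n = 3 each). TIMP sums were 41.1 ± 11.5 against 37.3 ± 8.38 RPKM in DKO tumours and non-tumour liver, and 46.6 ± 15.7 against 52.7 ± 19.4 in the Atg7KO groups. The ratio of the MMP to the TIMP sum was 3.08 ± 0.119 in DKO tumours against 4.29 ± 0.897 in DKO non-tumour liver. In Atg7KO it was 2.62 ± 0.812 in tumours against 3.19 ± 0.861 in non-tumour liver. The DKO libraries did not overlap in this ratio and the Atg7KO libraries did. Mmp7 alone made 11.2, 27.2 and 63.1 RPKM of the MMP sums of 109, 104 and 166 in DKO tumours. In DKO non-tumour liver it made 53.1, 86.0 and 94.1 RPKM of 143, 150 and 174. Its mean was 3.36 RPKM in Atg7KO tumours and 54.1 in Atg7KO non-tumour liver. Mmp7 thus weighs heavily on the MMP sums and the ratio, which were not taken without it. With 3 libraries a side, the smallest two-sided p of an exact permutation test is 0.1, so single values were not tested that way.

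Tumours differed from non-tumour liver in a handful of members: levels were lower for Hpse, Mmp7 and Adam33 and higher for Loxl2, Loxl4 and Adam10 on average over both genotypes, and none of these reached an adjusted p under 0.05. With edgeR's quasi-likelihood test, adjusted by Benjamini-Hochberg over all 14443 genes, 0 of 50 members were called, against 1 gene of all (0.00692%). At an unadjusted p under 0.05, 7 members were higher and 7 lower, where the background was 10.8% of all genes higher and 10.5% lower. Of the members 26 lay above 0, beside 51.2% of all genes, and their median log2 fold change was 0.02, beside 0.01 for all genes. DESeq2 was run without the low-count filter and tested 76 members. It called 7 of the 76 (Adam10, Adam33, Hpse, Loxl2, Loxl4, Mmp7 and Timp2) where it called 6.25% of 19782 genes. Limma voom called the same genes except Timp2, 6 of 50 members, where it called 3.53% of genes. Leaving out the third DKO non-tumour library, edgeR called 3 members (Hpse, Loxl4 and Adam10), and leaving out the third DKO tumour library it called 1, Hpse. The share of all genes called in these fits was not counted. The 7 higher members became 4 when replicate 2 of Atg7KO non-tumour liver or replicate 1 of DKO non-tumour liver was dropped, and the 7 lower became 11 when replicate 2 of the Atg7KO tumours was dropped.

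Hpse, heparanase, was the member with the clearest tumour difference: every one of the 6 tumour libraries lay below every one of the 6 non-tumour libraries. It had 10.2, 12.1 and 14.1 CPM in DKO tumours, against 20.04, 15.9 and 18.5 CPM in DKO non-tumour liver. It had 6.44, 7.89 and 8.98 CPM in Atg7KO tumours, against 20.6, 15.6 and 20.4 CPM in Atg7KO non-tumour liver. The 2 non-tumour groups overlapped fully, while the DKO tumours lay above the Atg7KO tumours without overlap. Averaged over genotypes the log2 fold change was -0.93 with an SE of 0.15 (edgeR, adjusted p = 0.0555), rank 10 of all genes by p. It was -0.58 ± 0.21 in DKO (adjusted p = 0.146, edgeR) and -1.28 ± 0.21 in Atg7KO (adjusted p = 0.0917, edgeR). Hpse was the only member of the 50 whose tumour and non-tumour libraries did not overlap over both genotypes, a pattern that 0.755% of all genes showed in the lower direction and 0.9% in the higher. The gene lies at chr5:100679486-100719683 in mm10 on the minus strand. Its adjusted p in edgeR was 0.0477 with median-ratio factors, 0.0481 without the count filter and 0.0313 with an offset for gene length.

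**Figure D2:**
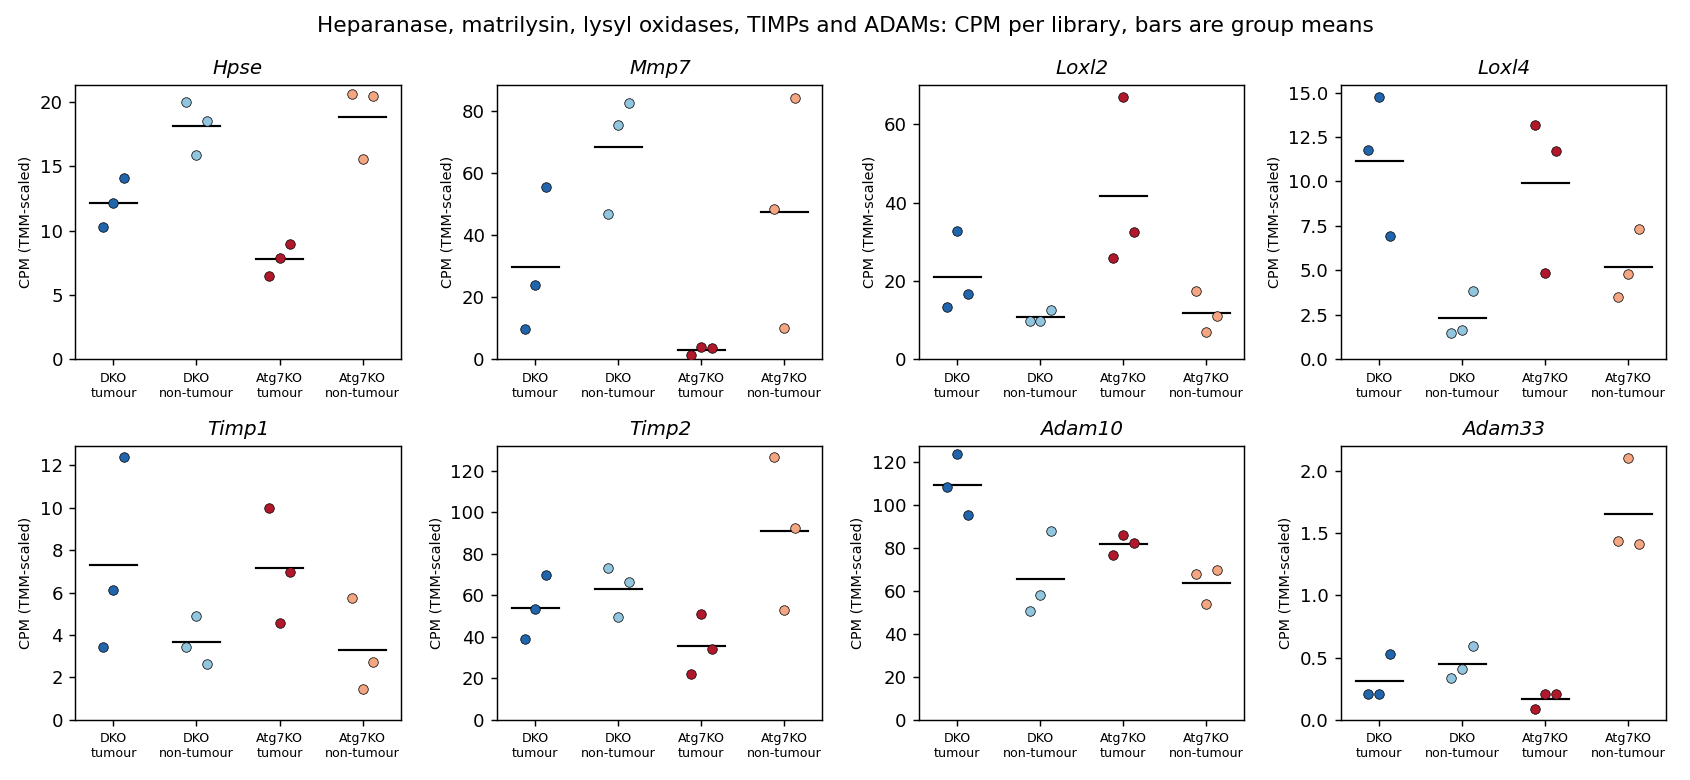
TMM-scaled CPM of 8 members, with 1 point per library and a bar at the mean of each group of 3. Hpse lies at 6.44 to 14.1 CPM in tumours and 15.6 to 20.6 CPM in non-tumour liver, and Mmp7 lies at 1.41 to 3.98 CPM in Atg7KO tumours, below all its other points.

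Among the collagenases, whose products cut fibrillar collagen, Mmp13 and Mmp8 were tested, and neither reached an unadjusted p under 0.05 in a tumour comparison. Mmp13, the main interstitial collagenase of mice, had 31.9, 7.70 and 15.2 CPM in DKO tumours, against 8.15, 3.14 and 8.88 CPM in DKO non-tumour liver. Its values were 27.7, 10.9 and 74.9 CPM in Atg7KO tumours, against 17.9, 4.01 and 53.4 CPM in Atg7KO non-tumour liver. The groups overlapped in both genotypes, with replicate 3 far above the other Atg7KO libraries in both tissues. The log2 fold change averaged over genotypes was 1.01 ± 0.62 (edgeR, adjusted p = 0.371).

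The metalloelastase gene Mmp12, known from macrophages, had 103, 23.5 and 94.1 CPM in DKO tumours, against 52.7, 19.5 and 47.0 CPM in DKO non-tumour liver. In Atg7KO it had 82.7, 27.1 and 73.8 CPM in tumours, against 50.1, 19.2 and 48.6 CPM in non-tumour liver. Replicate 2 was the lowest library of Mmp12 and of Mmp13 in all 4 groups, and the spread it made was larger than the tumour difference of Mmp12, 0.76 ± 0.42 on the log2 scale (edgeR, adjusted p = 0.317). Both genes were higher in tumour in 6 of 6 same-numbered comparisons, though the labels do not call these pairs. Their SE was smaller in the fit with a replicate block, whose values are given with the processing. Summed macrophage markers, 13 of 13 present, were 975 to 1586 CPM in DKO tumours against 1812 to 2249 in DKO non-tumour liver, and 1085 to 1970 in Atg7KO tumours against 1373 to 1677 in Atg7KO non-tumour liver. Their part in the Mmp12 values was not tested.

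Mmp7, matrilysin, lies at the opposite end of the chromosome 9 cluster from Mmp13, and its level was lower in tumours. It had 9.81, 23.8 and 55.4 CPM in DKO tumours, against 46.6, 75.5 and 82.6 CPM in DKO non-tumour liver. It had 1.41, 3.98 and 3.47 CPM in Atg7KO tumours, against 48.3, 9.88 and 84.2 CPM in Atg7KO non-tumour liver. The Atg7KO groups did not overlap, and the DKO groups overlapped through tumour replicate 3. The log2 fold change was -1.20 in DKO (edgeR, adjusted p = 0.338) and -4.00 ± 0.81 in Atg7KO (adjusted p = 0.112, edgeR). Its exons share 123 bases with AV064505 on the opposite strand, which had 1.08 reads per library on average. Of 8 cholangiocyte markers, 0 were lower or higher in DKO tumours at an unadjusted p under 0.05, with 4 above 0 and 4 below. In Atg7KO tumours 5 of 8 were lower at that threshold, beside 8.74% of all genes, with 2 above 0 and 6 below. Krt19, a keratin of bile duct cells, stood at 2.04 to 10.1 CPM in DKO tumours against 6.76 to 13 in DKO non-tumour liver, and at 0.299 to 4.26 in Atg7KO tumours against 4.56 to 14.3 in Atg7KO non-tumour liver. The marker sum did not follow Mmp7. It was 455 to 1082 CPM in DKO tumours against 353 to 1187 in DKO non-tumour liver. In Atg7KO it was 470 to 6506 CPM in tumours against 475 to 1219 in non-tumour liver, of which Spp1 made up to 6400 CPM. No marker of this list was at 0 in a whole group, and their part in the Mmp7 difference was not tested.

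**Figure D3:**
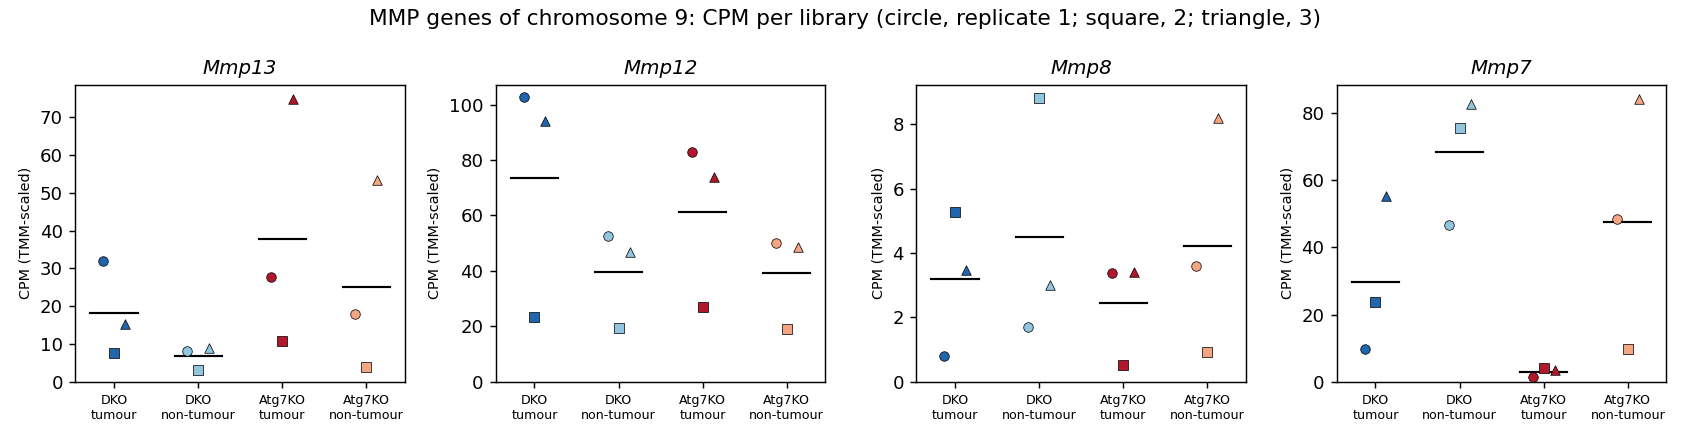
TMM-scaled CPM of the 4 tested MMP genes of the chromosome 9 cluster in genomic order, with 1 point per library, marker shapes for the replicate number and a bar at each group mean. Squares, replicate 2, are lowest in every group for Mmp13 and Mmp12 and not for Mmp8 and Mmp7.

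The gelatinase genes Mmp2 and Mmp9, whose products cut denatured collagen and basement membrane collagen, both averaged below their non-tumour level. Mmp2, a gene of stellate cells and fibroblasts, had 8.70, 12.8 and 21.1 CPM in DKO tumours, against 24.8, 9.29 and 17.5 CPM in DKO non-tumour liver, and these overlapped. It had 2.47, 12.2 and 3.61 CPM in Atg7KO tumours, against 39.8, 8.93 and 13 CPM in Atg7KO non-tumour liver, a log2 fold change of -1.75 ± 0.69 with overlap (edgeR, adjusted p = 0.239). That value was -2.76 without tumour replicate 2 and -0.84 without non-tumour replicate 1. Mmp9, known from neutrophils and macrophages, reached 22.6 CPM in Atg7KO tumour replicate 3 and 60.0 CPM in Atg7KO non-tumour replicate 3, and no other library of the 12 exceeded 9.88 CPM. The summed neutrophil markers, 10 of 10 present, were also highest in those libraries within their groups, 176 CPM in Atg7KO tumour replicate 3 and 501 CPM in Atg7KO non-tumour replicate 3. DKO non-tumour replicate 2 had a marker sum of 480 CPM and an Mmp9 level of 7.24 CPM, the highest of its group. The part of neutrophil RNA in the Mmp9 values was not tested.

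Among the stromelysins, Mmp11 was the only gene tested, at low level. It had 6.61, 1.21 and 1.34 CPM in DKO tumours, against 1.61, 0.956 and 1.52 CPM in DKO non-tumour liver, and only tumour replicate 1 stood apart. It had 0.768, 1.13 and 0.482 CPM in Atg7KO tumours, against 3.28, 1.47 and 1.95 CPM in Atg7KO non-tumour liver, without overlap (log2 fold change -1.49 ± 0.66, edgeR, adjusted p = 0.28). Of the membrane-type MMPs, 5 of 6 were tested. Mmp14, which activates pro-MMP2 at the cell surface, averaged 83.2 ± 3.62 CPM in DKO tumours against 64.7 ± 5.79 in DKO non-tumour liver, and 107 ± 27.0 in Atg7KO tumours against 92.7 ± 22.9 in Atg7KO non-tumour liver (SD, n = 3 each). The DKO libraries did not overlap and the Atg7KO libraries did, with log2 fold changes of 0.36 and 0.21 (edgeR, adjusted p = 0.35 and adjusted p = 0.674). Mmp19, the most abundant of the other MMPs, averaged 53.7 ± 4.91 CPM in DKO tumours against 52.5 ± 2.82 in DKO non-tumour liver and 71.6 ± 20.9 in Atg7KO tumours against 80.7 ± 26.7 in Atg7KO non-tumour liver. It shares 789 exon bases with Tmem198b on the opposite strand, and the strand setting of the counting is not given in the sources used here.

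The 4 TIMP genes went separate ways. Timp1, an inhibitor known to be induced in injured liver, had 3.44, 6.10 and 12.4 CPM in DKO tumours, against 3.44, 4.92 and 2.62 CPM in DKO non-tumour liver. In Atg7KO it had 9.98, 4.54 and 6.95 CPM in tumours, against 5.73, 1.43 and 2.73 CPM in non-tumour liver. Groups overlapped in both genotypes, with a log2 fold change over both of 1.06 ± 0.40 (edgeR, adjusted p = 0.163).

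Timp2, which inhibits MMPs and also takes part in the activation of pro-MMP2, had 38.8, 53.4 and 69.7 CPM in DKO tumours, against 73.2, 49.5 and 66.3 CPM in DKO non-tumour liver. In Atg7KO it had 22.3, 50.9 and 34.2 CPM in tumours, against 127, 53.0 and 92.6 CPM in non-tumour liver. The Atg7KO libraries did not overlap, though tumour replicate 2 and non-tumour replicate 2 were close, and the log2 fold change was -1.34 ± 0.37 (edgeR, adjusted p = 0.148). In DKO it was -0.22, with overlap. Timp3, the matrix-bound inhibitor that also blocks ADAM17, averaged 83.2 ± 29.6 CPM in DKO tumours against 72.5 ± 34.8 in DKO non-tumour liver, and 74.0 ± 22.2 in Atg7KO tumours against 107 ± 30.7 in Atg7KO non-tumour liver (SD, n = 3 each), differences within the spread of the libraries. Timp4 had 0.0291, 0.243 and 0.469 CPM in DKO tumours and 0, 1.02 and 0.464 CPM in DKO non-tumour liver. In Atg7KO tumours it had 47.0, 0.0704 and 7.88 CPM, against 1.96, 0.833 and 1.52 CPM in Atg7KO non-tumour liver. The 47.0 CPM of a single tumour, replicate 1, make most of the Atg7KO tumour mean, and its neighbour replicate 2 rests on 2 reads.

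Hepatic stellate cell markers were mostly lower in Atg7KO tumours and mixed in DKO tumours. Of 12 markers, all present, 8 were lower and 1 higher at an unadjusted p under 0.05 in Atg7KO tumours (8.74% and 8.04% of all genes). There 2 lay above 0 and 10 below. In DKO tumours 2 were lower and 0 higher (10.3% and 12.2% of all genes), with 5 above 0 and 7 below. The marker sum was 396 to 558 CPM in DKO tumours against 555 to 815 in DKO non-tumour liver. In Atg7KO it was 357 to 443 CPM in tumours against 570 to 938 in non-tumour liver. Pdgfra, a receptor of stellate cells and fibroblasts, stood at 11.7 to 17.3 CPM in DKO tumours against 13 to 18.9 in DKO non-tumour liver, and at 5.16 to 7.43 CPM in Atg7KO tumours against 16.2 to 39.4 in Atg7KO non-tumour liver. The part of these cells in the values of Timp2, Mmp2, Adam33 and the ADAMTS genes was not tested.

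Among the ADAM sheddases, 8 of 9 were tested. Adam10, which cuts Notch and many other surface proteins, was higher in tumours by a small margin. It had 108, 124 and 95.2 CPM in DKO tumours, against 50.4, 57.8 and 87.8 CPM in DKO non-tumour liver. It had 76.6, 85.9 and 82.2 CPM in Atg7KO tumours, against 67.8, 54.0 and 69.6 CPM in Atg7KO non-tumour liver. No overlap was seen in either genotype, and DKO tumours lay above Atg7KO tumours without overlap. The log2 fold change over both genotypes was 0.55 ± 0.15 (edgeR, adjusted p = 0.0942), with 0.74 ± 0.22 in DKO (adjusted p = 0.124, edgeR).

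Adam17, which releases TNF and EGF receptor ligands, averaged 36.7 ± 7.53 CPM in DKO tumours against 31.5 ± 4.81 in DKO non-tumour liver and 34.7 ± 7.81 in Atg7KO tumours against 36.8 ± 4.92 in Atg7KO non-tumour liver (SD, n = 3 each). Its differences lay within the spread of the libraries, and it shares 99 exon bases with Iah1 on the opposite strand. Adam9 averaged 107 ± 14 and 84.2 ± 13.6 CPM in DKO tumours and non-tumour liver and 67.6 ± 13.4 and 81.6 ± 23.0 CPM in Atg7KO tumours and non-tumour liver. Adam33, known from mesenchymal cells of the airway, was low throughout. It had 0.204, 0.208 and 0.531 CPM in DKO tumours, against 0.340, 0.410 and 0.596 CPM in DKO non-tumour liver. It had 0.0853, 0.211 and 0.206 CPM in Atg7KO tumours, against 1.44, 2.10 and 1.41 CPM in Atg7KO non-tumour liver. The Atg7KO non-tumour libraries stood above the other 9, which is 42 to 53 reads against 2 to 18. The log2 fold change was -3.25 ± 0.56 in Atg7KO (edgeR, adjusted p = 0.106) and -0.52 in DKO.

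Of the ADAMTS proteases, 5 were lower in Atg7KO tumours at an unadjusted p under 0.05, beside 8.74% of all genes. Adamts2, which removes the amino-terminal propeptide of fibrillar procollagens, averaged 17.4 ± 6.64 CPM in DKO tumours against 14 ± 4.63 in DKO non-tumour liver, and 7.21 ± 0.773 in Atg7KO tumours against 17.4 ± 11.6 in Atg7KO non-tumour liver (SD, n = 3 each). In Atg7KO its log2 fold change was -1.27 ± 0.47 (edgeR, adjusted p = 0.219), with overlap, and -0.63 without non-tumour replicate 1. Adamts5, an aggrecan- and versican-cutting protease, averaged 7.43 ± 0.467 CPM in DKO tumours against 6.45 ± 1.30 in DKO non-tumour liver, and 6.45 ± 0.977 in Atg7KO tumours against 14.8 ± 8.51 in Atg7KO non-tumour liver. Adamts6 had 1.07, 0.458 and 0.757 CPM in Atg7KO tumours, against 1.27, 3.41 and 2.66 CPM in Atg7KO non-tumour liver, without overlap (log2 fold change -1.68 ± 0.45, edgeR, adjusted p = 0.141). Its DKO groups averaged 1.75 ± 0.409 CPM in tumours and 1.64 ± 0.126 in non-tumour liver. At the same threshold, Adamts7 and Adamts4 were higher in DKO tumours (12.2% of all genes) and Adamts14 in Atg7KO tumours (8.04%). Adamts7, which cuts cartilage oligomeric matrix protein, had 20.2, 7.70 and 6.00 CPM in DKO tumours, against 2.34, 5.74 and 3.48 CPM in DKO non-tumour liver (1.56 ± 0.48, edgeR, adjusted p = 0.128). Adamts14, another procollagen N-proteinase, had 17.9, 4.33 and 4.99 CPM in Atg7KO tumours, against 4.06, 3.02 and 3.50 CPM in Atg7KO non-tumour liver (1.36 ± 0.55, edgeR, adjusted p = 0.251). Tumour replicate 1 was the highest library for Adamts7 and for Adamts14. With 1 library left out, their log2 fold changes were 0.84 and 0.40 at the lowest.

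Of the lysyl oxidases, Loxl2 and Loxl4 had higher average levels in tumours of both genotypes. Loxl2, a cross-linker of collagen that is known to be induced in fibrotic liver, had 13.3, 32.8 and 16.5 CPM in DKO tumours, against 9.77, 9.63 and 12.6 CPM in DKO non-tumour liver. It had 25.8, 67.1 and 32.4 CPM in Atg7KO tumours, against 17.4, 6.86 and 10.9 CPM in Atg7KO non-tumour liver. Neither genotype showed overlap, and the highest tumour was replicate 2 in both. The log2 fold change was 1.40 ± 0.32 over both genotypes (edgeR, adjusted p = 0.0758), 0.97 in DKO (adjusted p = 0.223, edgeR) and 1.83 ± 0.45 in Atg7KO (adjusted p = 0.123, edgeR).

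Loxl4 had 11.8, 14.8 and 6.91 CPM in DKO tumours, against 1.49, 1.64 and 3.81 CPM in DKO non-tumour liver. In Atg7KO it had 13.2, 4.82 and 11.7 CPM in tumours, against 3.48, 4.80 and 7.34 CPM in non-tumour liver. The DKO groups were apart and the Atg7KO groups overlapped, with log2 fold changes of 2.25 ± 0.50 in DKO (edgeR, adjusted p = 0.117) and 0.93 in Atg7KO (edgeR, adjusted p = 0.352). Lox itself had 1.54, 13.8 and 9.50 CPM in DKO tumours, against 1.10, 8.20 and 1.85 CPM in DKO non-tumour liver, and 2.04 ± 1.39 in Atg7KO tumours against 2.11 ± 0.954 in Atg7KO non-tumour liver (SD, n = 3 each). Loxl1, which acts on elastin, averaged 8.96 ± 3.10 CPM in DKO tumours against 7.35 ± 2.38 in DKO non-tumour liver, and 4.71 ± 3.91 in Atg7KO tumours against 13.6 ± 10.7 in Atg7KO non-tumour liver. Loxl3 averaged 4.81 ± 1.76 CPM in DKO tumours against 4.62 ± 0.857 in DKO non-tumour liver, and 3.02 ± 0.488 in Atg7KO tumours against 5.10 ± 1.65 in Atg7KO non-tumour liver, and it shares 534 exon bases with Htra2 on the opposite strand.

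Within DKO, where both genes are deleted, tumour levels of the members leaned upward. Of the 50 members, 36 had a log2 fold change above 0 (50.9% of all genes) and 14 below, with a median of 0.32 beside 0.01 for all genes. Fold changes in DKO moved with gene length (Spearman 0.495 across all tested genes, which share the libraries), and with an offset for length 28 members were above 0 and 22 below, with a median of 0.11. With edgeR 0 members were called, as were 0 of all 14443 genes. Past an unadjusted p of 0.05, 6 members were higher (Loxl4, Adam10, Adamts7, Adam19, Adamts4 and Adam12), a share near the background of 12.2% of all genes, and 1 was lower, Hpse, against 10.3%. The libraries did not overlap for 11 members higher in tumours (background 13.2%) and for 2 lower (13.8%), so the members' share was above that of all genes in the first direction and below it in the other. DESeq2 called 3 of 76 members, Adam10, Adamts7 and Loxl4, where it called 5.57% of genes. Limma voom called 0 of 50 with 0 genes of all. When the third DKO non-tumour library was dropped, edgeR called 2 members, Loxl4 and Adam10, both at an adjusted p of 0.0372. The share of all genes called in that fit was not counted. The 1 lower member became 0 when replicate 1 of either DKO tissue was dropped, 4 when tumour replicate 3 was dropped and 2 when non-tumour replicate 2 was dropped.

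Within Atg7KO the members leaned the other way: 17 were above 0 (background 49.7% of all genes) and 33 below, with a median of -0.32 beside 0.00 for all genes. Dropping tumour replicate 1 gave a median of -0.09, and dropping tumour replicate 2 gave -0.51. Dropping non-tumour replicate 1 or 3 gave -0.20 or -0.17. With the offset for gene length it was -0.11, with 21 above and 29 below. With edgeR 0 members and 0 genes of all were called. Before adjustment, 5 members were higher at a p under 0.05, against a background of 8.04%, and 14 were lower, against 8.74%. Without overlap were 4 members higher (background 11.6%) and 9 lower (11.9%). The 14 lower members were Hpse, Adam33, Mmp7, Adamts6, Timp2, Adamts5, Adamts3, Mmp17, Adamts2, Mmp2, Adamts10, Loxl1, Adam23 and Mmp11, and the 5 higher were Loxl2, Timp4, Adamts14, Adam32 and Mmp24. Mmp24, with 9 to 57 reads per library, shares 635 exon bases with BC029722 on the opposite strand. That gene had 758 reads per library on average, and the strand setting of the counting is not given. DESeq2 called 6 of 76 members (Adam33, Adamts6, Hpse, Loxl2, Mmp7 and Timp2) where it called 3.09% of genes. Limma voom called 5 of 50 (without Adamts6) where it called 2.3%. The 14 lower members became 8 when tumour replicate 3 was dropped and 6 when non-tumour replicate 1 was dropped. The 5 higher became 3 when replicate 1 of either Atg7KO tissue was dropped, 1 when non-tumour replicate 2 was dropped and 2 when non-tumour replicate 3 was dropped. Atg7KO non-tumour replicate 1 was the highest of all 12 libraries for 15 of the 50 members and the lowest for 0. These counts were made for the members alone, with no share of all genes beside them.

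**Figure D4:**
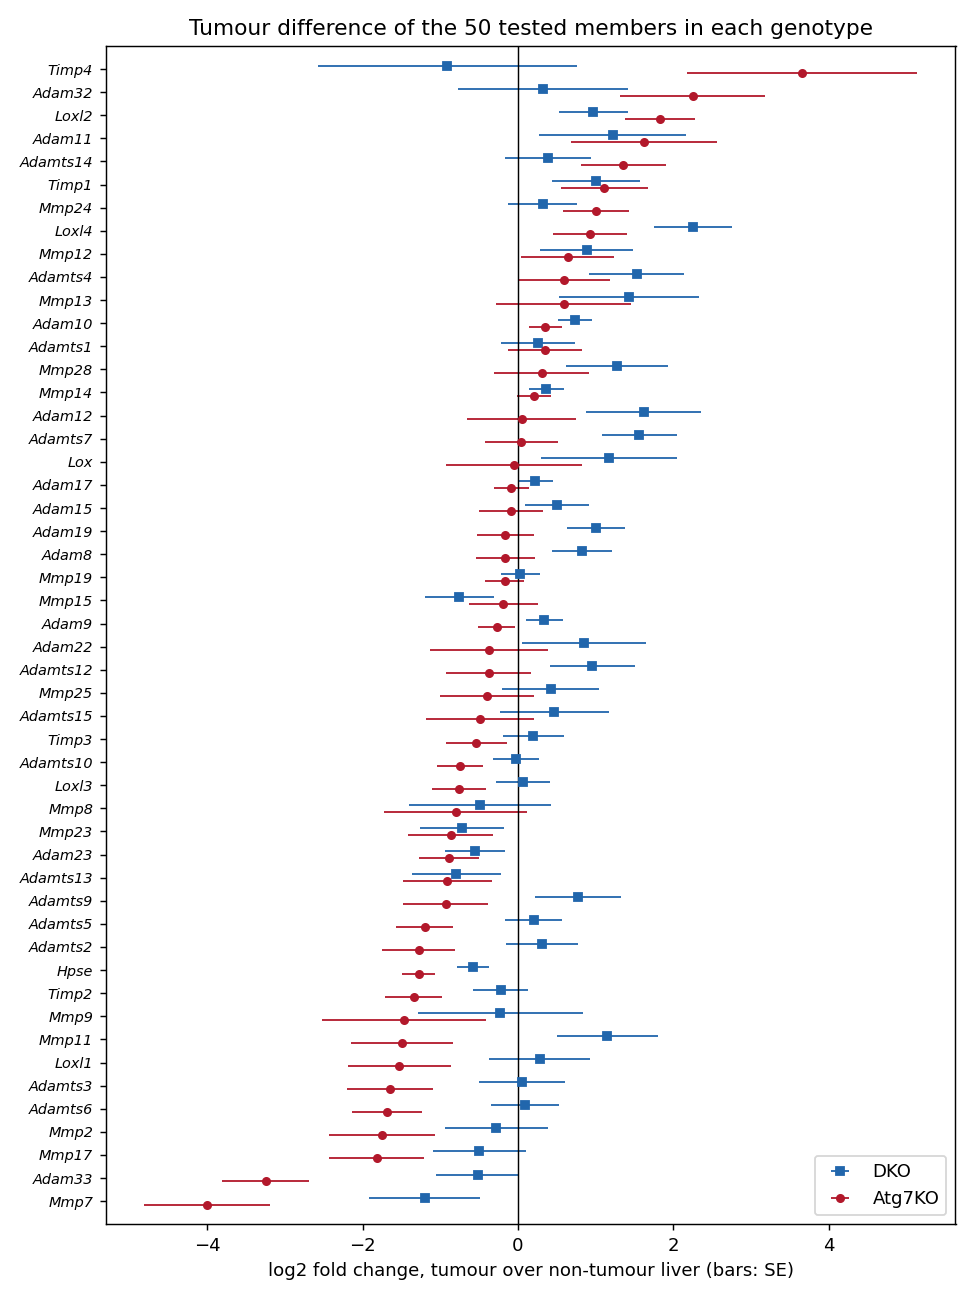
Log2 fold change of tumour over non-tumour liver for the 50 tested members, with bars for the SE, as squares for DKO and circles for Atg7KO, ordered by the Atg7KO value. For 41 of the 50 members the DKO value lies to the right of the Atg7KO value.

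The tumour difference itself was then compared between genotypes. For 41 of 50 members it was larger or less negative in DKO than in Atg7KO, where 52.1% of all genes showed this, and the median interaction was 0.83 on the log2 scale beside 0.04 for all genes. Before adjustment, at a p under 0.05, 12 members had a positive interaction (background 9.43%) and 0 a negative one (8.45%), though 3 were positive in the fit with a replicate block, and edgeR called 0 members and 0 genes of all after adjustment. Adam33 had 2.73 ± 0.77 (adjusted p = 0.175, edgeR), Mmp11 2.65 ± 0.92 (adjusted p = 0.195, edgeR; 1.39 without DKO tumour replicate 1) and Adamts6 1.77 ± 0.63 (adjusted p = 0.197, edgeR). The others were Adamts5, Mmp7, Adamts2, Hpse, Adamts7, Adam19, Timp2, Adamts3 and Adamts9. DESeq2 called 0 of 76 members where it called 2.06% of genes.

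Gene length moved with this comparison. Across all tested genes the interaction had a Spearman correlation of 0.574 with gene length, a description over genes that share the libraries, and the tested members had a median length of 4060 bases beside 2862 for all genes. With an offset for length fitted in each library, the median interaction of the members was 0.50, and 3 members had a positive and 1 a negative interaction at an unadjusted p under 0.05. The 12 positive members became 5 when replicate 1 of the Atg7KO tumours was dropped, and 6 when replicate 2 of either DKO tissue, or replicate 1 or 3 of Atg7KO non-tumour liver, was dropped. The 0 negative members became 1 when replicate 2 of either genotype's tumours, or replicate 1 of DKO non-tumour liver, was dropped.

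Between genotypes, DKO tumours differed from Atg7KO tumours most in Mmp7, which was higher, and in Adam32, Timp4 and Adamts14, which were lower. Of the 50 members 35 lay above 0 and 15 below, with a median of 0.19 beside 0.00, where 50.3% of all genes lay above 0. The median was 0.30 when DKO tumour replicate 1 was dropped, and 0.37 or 0.29 when Atg7KO tumour replicate 2 or 3 was dropped. With the length offset it was 0.09, with 28 above 0 and 22 below (Spearman with length 0.356 across genes). With edgeR 0 members were called, beside 7 genes of all (0.0485%). At an unadjusted p under 0.05, 7 members were higher in DKO tumours (background 8.34%) and 5 lower (8.27%), and without overlap were 8 higher (9.95%) and 4 lower (10.3%). Mmp7 gave 3.32 ± 0.79 on the log2 scale (adjusted p = 0.135, edgeR). Adam32, an ADAM known from testis, had 0.262, 0.0347 and 0.281 CPM in DKO tumours, against 4.69, 4.16 and 0.585 CPM in Atg7KO tumours, without overlap (-3.98 ± 1.03, adjusted p = 0.153, edgeR). Adamts14 had 2.18, 2.81 and 2.91 CPM in DKO tumours, against 17.9, 4.33 and 4.99 CPM in Atg7KO tumours (-1.78 ± 0.56, adjusted p = 0.186, edgeR), and the difference was -0.82 without Atg7KO tumour replicate 1. Hpse had a log2 difference of 0.64 ± 0.21 (adjusted p = 0.199, edgeR), and the sheddase ADAMs were above 0 in 8 of 8 genes, with 1 at an unadjusted p under 0.05, Adam9. DESeq2 called 4 of 76 members, Adam32, Adamts14, Mmp7 and Timp4, where it called 2.79% of genes. Limma voom called 0 of 50 where it called 0.256%. The 7 higher members became 4 when Atg7KO tumour replicate 1 or DKO tumour replicate 2 was dropped. With Atg7KO tumour replicate 2 dropped, 11 were higher and 3 lower.

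In non-tumour liver, 41 of 50 members were below 0 in DKO relative to Atg7KO and 9 above, where 46.1% of all genes lay above 0, with a median of -0.58 beside -0.05 for all genes. Without Atg7KO non-tumour replicate 1 the median was -0.34, with 36 below and 14 above. Markers of other cell types differed here as well at an unadjusted p under 0.05, where 7.37% of all genes were higher and 7.69% lower. Lower were 3 of 10 endothelial markers (9 of 10 below 0), and higher were 2 of 13 macrophage and 3 of 5 mesothelial markers. Of 8 cholangiocyte markers 1 was higher and 2 lower, and of 12 stellate markers 0 were higher and 1 lower. The part of these cell types in the members' values was not tested. With edgeR 0 members were called beside 8 genes of all (0.0554%). Unadjusted, 0 members were higher at a p under 0.05 (background 7.37%) and 8 lower (7.69%), and without overlap were 0 higher (11.6%) and 5 lower (12.2%). Adam33 gave -1.85 ± 0.52 (adjusted p = 0.226, edgeR), Adamts5 -1.20 ± 0.37 (adjusted p = 0.238, edgeR; -0.67 without Atg7KO non-tumour replicate 1) and Adam19 -0.98 ± 0.38 (adjusted p = 0.285, edgeR). The others were Mmp19, Loxl4, Mmp14, Mmp9 and Adamts9. Limma voom called Adam33 alone, where it called 3.88% of genes, and DESeq2 called 0 of 76 members where it called 0.955%. Gene length moved with this comparison too (Spearman -0.474 across genes), and with the length offset 35 were below 0, the median was -0.38 and the count of 8 was 1. The 8 became 4 when replicate 1 of Atg7KO or replicate 2 of DKO non-tumour liver was dropped, 3 when replicate 3 of Atg7KO or replicate 1 of DKO non-tumour liver was dropped, and 5 when DKO tumour replicate 3 was dropped.

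Genes that act with these proteases were looked at as 5 further lists, with 0 genes called by edgeR in any comparison. The counts that follow are at an unadjusted p under 0.05. Of 23 matrix substrate genes, collagens and other structural proteins, 8 were higher and 1 lower in DKO tumours, and 0 higher and 7 lower in Atg7KO tumours, with medians of 0.63 and -0.66. Of all genes, 12.2% were higher and 10.3% lower in DKO tumours, and 8.04% higher and 8.74% lower in Atg7KO tumours. Their interaction was positive in 11 and negative in 0 (background 9.43% and 8.45%), with a median of 1.47. The interaction moved with gene length across all genes (Spearman 0.574), and this list was not counted with the length offset. Dcn, the small proteoglycan decorin, was lower in both (-0.82 ± 0.29 in DKO, adjusted p = 0.142, and -1.33 ± 0.29 in Atg7KO, adjusted p = 0.112, edgeR). Col6a3, a chain of collagen VI, had an interaction of 2.15 ± 0.67 (adjusted p = 0.181, edgeR).

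The 6 ADAMTS-like genes, which resemble ADAMTS proteases without the catalytic domain, had 0 higher and 0 lower in DKO tumours and 1 higher and 4 lower in Atg7KO tumours. Adamtsl2, a microfibril-binding protein, stood at 10.9 to 17.7 CPM in DKO tumours against 11.5 to 20.2 in DKO non-tumour liver, and at 3.67 to 10.5 CPM in Atg7KO tumours against 17.2 to 44.4 in Atg7KO non-tumour liver (-2.09 ± 0.43, adjusted p = 0.112, edgeR). Of 16 activators of proteases and plasminogen system genes, 3 were higher and 0 lower in DKO tumours and 1 higher and 0 lower in Atg7KO tumours. Plaur, the urokinase receptor, was higher over both genotypes without overlap (1.43 ± 0.37, adjusted p = 0.0843, edgeR). Of 8 tested further protease inhibitors, 0 were higher and 1 lower in DKO tumours and 1 higher and 0 lower in Atg7KO tumours. Of 10 tested collagen processing genes, 2 were higher and 1 lower in DKO tumours and 0 either way in Atg7KO tumours. Endothelial markers, 10 in number, had 2 higher and 1 lower in DKO tumours and 1 higher and 2 lower in Atg7KO tumours.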

How the data were processed

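The table held whole-number counts of reads per RefSeq gene, as deposited by the authors, with gene lengths and mm10 positions, for 12 libraries of total RNA. Per the submitters' processing notes bcl2fastq was used, with STAR 2.5.3a, with featureCounts from the package Subread (1.5.3) and with edgeR (3.20.8). Library kit, strand setting and annotation release are not given in the sources used here, so reads of overlapping genes on opposite strands can be mixed. Of the members, 6 share exon bases with another gene of the table.

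Genes were kept with filterByExpr (minimum count 10, minimum total 15), scaled by TMM and fitted in 1 model of the 4 groups with the quasi-likelihood test of edgeR 4.0.16 (robust, legacy deviances) in R 4.3.3. Tumour was compared with non-tumour liver per genotype and averaged over both, DKO with Atg7KO per tissue, and the tumour differences between genotypes (interaction). All tests are two-sided with Benjamini-Hochberg adjustment over every tested gene and a threshold of 0.05. The common biological coefficient of variation was 0.365. CPM and RPKM are TMM-scaled, and each ± beside a log2 fold change is its SE. Intervals from reads would cover counting error only, which is large for genes such as Adam33.

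The members and gene lists were chosen with earlier results of these data known. Named are all TIMP and lysyl oxidase genes, Hpse, the 3 members with the lowest unadjusted p in each direction of each comparison, the most abundant of each role, and Mmp2, Mmp9, Mmp12, Mmp13, Mmp14, Adam10 and Adam17. Other members are named only in full lists of those past the unadjusted threshold, and marker genes, library-driven genes and the untested genes were picked after their values were seen. Alternatives were median-ratio (RLE) factors, DESeq2 1.42.0, limma 3.58.1 (voom with quality weights), no filter, an offset for gene length (loess, span 0.5), a replicate block, and leaving out each library. The tests were checked on simulated counts. Promoter windows came from RefSeq, and python 3.11.15 with matplotlib 3.10.9 drew the figures.

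Marker lists not given with the results were those of T and NK cells (7 genes), B cells (4) and mesothelium (5). At an unadjusted p under 0.05 in edgeR, T and NK markers had 0 either way in every comparison, B markers had 1 lower in DKO tumours and 3 lower over both genotypes, and mesothelial markers had 1 lower in Atg7KO tumours and over both genotypes, and 3 of 5 higher in DKO than in Atg7KO in each tissue, from levels summing to 0.810 to 20.5 CPM. Of hepatocyte markers, 1 of 9 was higher and 2 were lower in DKO tumours, and 0 higher and 1 lower in Atg7KO tumours. Macrophage markers had 1 of 13 lower in the tumours of each genotype, with 9 below 0 in DKO and 10 in Atg7KO. Neutrophil markers had 0 of 10 past the threshold, yet 9 lay below 0 in DKO tumours and 10 in Atg7KO tumours. Of all genes, 50.9% and 49.7% lay above 0 in these comparisons.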

Additional observations from a re-analysis of the deposited data

How the results depend on the processing

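Of 58 differences of named members, no alternative turned a direction past the threshold round, and 1003 alternative values stayed on the same side of it. Adjusted p fell under 0.05 in 41 cases, 20 of them with DESeq2, 12 with limma voom, 6 with 1 library left out and 3 with other settings.

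Calls after adjustment were 0 throughout with edgeR as reported. DESeq2 and the fit with no filter tested 76 members, and the other settings tested 50. For Atg7KO tumours DESeq2 gave 6 and voom 5, for DKO tumours DESeq2 gave 3, for the mean of both DESeq2 gave 7, voom 6, and RLE factors, no filter and the length offset 1 each (Hpse), for DKO against Atg7KO tumours DESeq2 gave 4, and for non-tumour liver voom gave 1. The cause of these differences between tools was not tested. The share of all genes called was counted for edgeR as reported, DESeq2 and voom only.

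At an unadjusted p under 0.05, voom gave 2 higher members in Atg7KO tumours, 11 lower over both genotypes and 11 higher in DKO against Atg7KO tumours. Lower members in DKO tumours were 2 with no filter and 3 with the length offset. In non-tumour liver no filter gave 1 higher and the length offset 1 lower. For the interaction, DESeq2 gave 1 negative and the length offset 3 positive and 1 negative. The cause of each was not tested.

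With 1 library left out, higher members ranged from 1 to 6 and lower from 6 to 15 in Atg7KO tumours, and from 4 to 8 and 0 to 4 in DKO tumours, with 0 to 2 calls. Over both genotypes they ranged from 4 to 10 and 6 to 11, with 0 to 3 calls. Between tumours the ranges were 4 to 11 and 3 to 5, in non-tumour liver 0 and 3 to 11, and for the interaction 5 to 12 and 0 to 1.

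The replicate numbers were not taken as pairs. Tumour and non-tumour libraries with the same number had correlations of their deviations of 0.074, 0.332 and 0.024 in DKO and 0.016, 0.056 and 0.311 in Atg7KO. With different numbers the correlations ranged from -0.246 to 0.161 in DKO and from -0.216 to 0.114 in Atg7KO. Not every library correlated best with its own number. If a number marks an animal, the main fit leaves that pairing out. The replicate block left 3 positive interactions and moved no other count by more than 1.5 times. The block was genotype and number for the tumour comparisons and the interaction. For DKO against Atg7KO it was the number alone, shared across genotypes. Those are different mice, so that fit cannot show what pairing would do. In that block fit Mmp12 and Mmp13 had log2 fold changes over both genotypes of 0.68 ± 0.14 (adjusted p = 0.102) and 1.09 ± 0.20 (adjusted p = 0.0914, edgeR).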

Other observations

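Several members owed their highest value to 1 tumour. Adam11, an ADAM without protease activity known from the nervous system, had 58.1 CPM in Atg7KO tumour replicate 2 and 1.88 to 20.03 CPM in the other 11 libraries. Adamts1, a proteoglycan-cutting protease, had 31.2 CPM in the same tumour and 5.46 to 13.4 CPM elsewhere. Loxl2 was also highest there, at 67.1 CPM, and this is the library with the hepatocyte marker sum of 29124 CPM and the cholangiocyte marker sum of 6506 CPM. Adamts14 had 17.9 CPM and Timp4 47.0 CPM in Atg7KO tumour replicate 1.

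Same-numbered libraries, which the labels do not call pairs, gave the same direction in 6 of 6 comparisons for 8 members. This was counted for the tested members alone, so no share of all genes stands beside it. Adam10, Loxl2, Loxl4, Mmp12 and Mmp13 were higher in tumours, and Adam33, Hpse and Mmp7 were lower.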
